A study of Sebastes mystinus with 44 samples.

Results

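Fish held for 12 h in the exposure named cross were compared with fish held for 12 h in seawater of lowered oxygen (DO), in white muscle of juvenile blue rockfish (Sebastes mystinus). The comparison holds 8 of the 44 fish of the study, 4 cross fish (Mys7064, Mys7065, Mys7066 and Mys7067) and 4 DO fish (Mys21, Mys22, Mys23 and Mys24), chosen by the exposure and time in their labels. Cross is not defined in the labels. From what is known of the study it is the combined exposure to high pCO2 and low oxygen, so that the comparison asks what added carbon dioxide does to muscle RNA when oxygen is already low. The study also sampled fish under lowered pH (high pCO2, group pH) and under control seawater, and it repeated the sampling at 24 h and 2 weeks. All fish were juveniles kept in 8 aquaria of 10 fish with flowing seawater at 11.4 to 12.3 °C, where carbon dioxide was bubbled to lower pH and nitrogen to lower oxygen. All cross fish of the study are named from Mys7064 to Mys7079 and all other fish from Mys13 to Mys60, so anything that went with the numbering cannot be told apart from the exposure. The aquarium of each fish is not in the sources used here. If the 8 aquaria served all 4 exposures, some cross or DO fish must have shared an aquarium. Fish of a group may then not be independent units of exposure, and p-values measure only the spread between these fish.

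White muscle makes up most of the trunk of a bony fish and is built of fast fibres that draw mainly on glycolysis for burst swimming. Low oxygen is known to act on vertebrate cells largely through hypoxia-inducible factors, which shift metabolism towards glycolysis, while raised carbon dioxide acidifies the blood and tissues until fish restore pH by accumulating bicarbonate. The data describe assembled features with Trinity identifiers and no gene names, so neither these pathways nor markers of muscle and of other cell types could be looked up, and the tissue label was not checked against its markers. In bulk muscle, fewer cells of a type and less RNA per cell cannot be told apart.

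Libraries held 11026615 to 34333988 counts in cross fish and 13840398 to 25071601 in DO fish (two-sided exact permutation p = 0.343 over 70 divisions of 4 and 4 fish, smallest possible 0.0286). Cross libraries held a count for 41344 to 70738 features and DO libraries for 45150 to 53156. The 100 most abundant features of a library took 46.2%, 47.5%, 54.7% and 62.0% of the counts in cross fish Mys7064, Mys7065, Mys7066 and Mys7067, and between 57.1% and 63.4% in DO fish. The mean share was 52.6% ± 7.31 in cross and 61.2% ± 2.83 in DO fish (SD, n = 4 each; two-sided exact permutation p = 0.0857). The part of depth and library composition in the results that follow was not tested.

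No feature passed the test between cross and DO fish. The quasi-likelihood test of edgeR, which estimates the spread of each feature from all 16 fish of 12 h, called 0 of 24701 features (0%) at an adjusted p under 0.05, and the smallest adjusted p was 0.125. At an unadjusted p under 0.05 it counted 2774 features (11.2%), of which 1629 were higher in cross fish (6.59%) and 1145 were lower (4.64%). DESeq2 called 231 features, 165 higher and 66 lower in cross, all of which were among the 2774. Limma voom with quality weights called 1, and at an unadjusted p under 0.05 it counted 1318 higher and 1441 lower, so that the larger number of higher features depended on the tool. In edgeR, 329 features were called without cross fish Mys7066 and 566 with no filter on low counts, where 124974 features were tested. The median absolute log2 fold change of cross against DO was 0.34, and 90% of features lay within 1.03. In 1021 features (4.13%) the 4 cross fish and the 4 DO fish did not overlap, with cross fish higher in 604 (2.45%) and lower in 417 (1.69%).

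Higher and lower features were unevenly spread over abundance. Among features with an average log2 level below 1 (log2 CPM, where CPM are counts scaled to the same library total), 450 of 10985 were higher (4.10%) and 526 lower (4.79%) at an unadjusted p under 0.05, beside 6.59% and 4.64% of all features. Between 1 and 4 the counts were 820 higher and 404 lower of 10022, and between 4 and 7 they were 314 and 124 of 2942. At 7 or above, the order was reversed, with 45 higher and 91 lower of 752. Of the 100 most abundant features tested, 0 were higher and 25 lower (6.59% and 4.64% of all features were), 93 had a negative fold change, and their median log2 fold change was -0.50 beside 0.05 over all features. Fold changes in this top class ran from -1.10 to 0.91, and their smallest adjusted p was 0.255 in edgeR. Against control, the median log2 fold change of the 100 was -0.20 in cross fish, with 76 negative, and 0.32 in DO fish, with 8 negative. At an unadjusted p under 0.05 in edgeR, 0 differed between cross and control (4.98% of all features did). Between DO and control 1 was higher and 0 lower (6.62% of all features differed). The counts of 0 and 25 were the same with RLE size factors, which moved the median over all features to 0.04 and that of the 100 to -0.50. The same 100 features took 43.0%, 45.4%, 54.5% and 61.7% of counts in cross fish Mys7064, Mys7065, Mys7066 and Mys7067, against 63.0%, 56.9%, 61.8% and 61.1% in DO fish Mys21, Mys22, Mys23 and Mys24. Mys7064, Mys7065 and Mys7066 were below every DO fish, while Mys7067 lay within the DO range, so the groups overlapped.

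**Figure D1:**
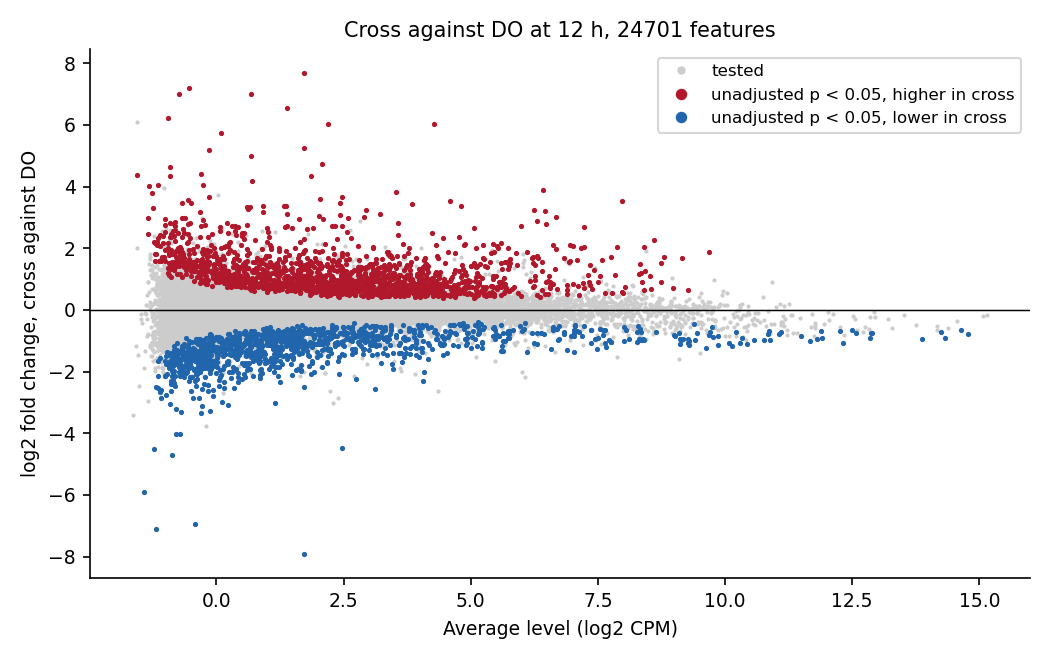
Log2 fold change of cross against DO at 12 h (vertical axis) by average level in log2 CPM (horizontal axis), 1 point for each of 24701 features. Coloured points had an unadjusted p under 0.05 in edgeR (1629 higher in red, 1145 lower in blue), and among the 100 most abundant features 25 were lower and 0 higher.

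In several large groups of the assembly, the features mostly lay on the same side. A Trinity identifier begins with a number shared by contigs that were grouped during assembly, and such groups can hold related genes or pieces of 1 gene whose reads are split among them. The 9 groups with at least 20 tested features held 294 features, of which 0 were higher and 80 lower in cross at an unadjusted p under 0.05, beside 6.59% and 4.64% of all features. The groups and the limit of 20 were chosen after the values were seen, and no test was made of them. Smaller groups lay on either side: over all groups, 8 had at least 5 lower features and 1 had at least 5 higher ones. The group with higher features, of 29 in all, had 10 of 13 tested features higher and 0 lower. At least 5 further groups, with 4 to 9 tested features, had 3 higher and 0 lower each. Other groups with fewer than 20 tested features leaned lower, with 0 higher. Among these, 11 of 19, 5 of 10, 4 of 11 and 4 of 9 tested features were lower. Groups of 5, 6 and 16 tested features had 3 lower each. Some groups held both, with 5 lower and 2 higher of 15, and 3 lower and 2 higher of 16. Groups with 3 higher or 3 lower features were not all listed, so 5 is not a full count and the lower list may not be full. The largest group of the assembly, with 121 features, had 38 of 70 tested features lower and 0 higher, and 68 of the 70 fold changes were negative (median log2 fold change -1.12, range -2.51 to 0.80). In 10 of the 70 the cross fish were all below the DO fish, as in 1.69% of all features. The group took 19527, 23024, 52931 and 44363 CPM of the library total in cross fish Mys7064, Mys7065, Mys7066 and Mys7067, against 57138, 42573, 72625 and 59168 CPM in DO fish Mys21, Mys22, Mys23 and Mys24. By these shares of the library, Mys7064 and Mys7065 were the lowest of the 8 fish and the other 2 cross fish lay inside the DO range. Scaled by TMM and summed over the tested features, Mys7066 was at 48508 CPM, just below the lowest DO fish, Mys22, at 48887 CPM. Mys7067, at 57041 CPM, stayed inside the DO range. The group held 5 of the 100 most abundant features, while the median average log2 CPM of its tested features was -0.15. The pH fish had 38434 to 43992 CPM and the control fish 42042 to 56268 CPM, all above Mys7064 and Mys7065. At 24 h, 3 of the 4 control fish were as low, with 21184, 18583 and 21790 CPM.

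TRINITY_DN49540_c0_g1 had the smallest p among the 404 features higher in cross without overlap and with an average log2 CPM of at least 1. Its level was 111, 109, 72.6 and 122 CPM in cross fish Mys7064, Mys7065, Mys7066 and Mys7067, against 24.0, 47.9, 21.1 and 18.9 CPM in DO fish Mys21, Mys22, Mys23 and Mys24. Every cross fish was above every DO fish, and the lowest cross fish stood well above the highest DO fish. The mean was 104 ± 21.5 CPM in cross and 27.98 ± 13.5 CPM in DO fish (SD, n = 4 each). The fitted log2 fold change was 1.89 with an SE of 0.32 (edgeR adjusted p = 0.125). The pH fish had 48.2 to 105 CPM, the lowest of them level with DO fish Mys22, and control fish 56.7 to 75.1 CPM, above all DO fish. Against control its log2 fold change was 0.60 (SE 0.31, edgeR adjusted p = 0.923) in cross fish and -1.28 (SE 0.31, edgeR adjusted p = 0.614) in DO fish, comparisons that share the control fish.

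TRINITY_DN45666_c4_g1 was at 33.1, 55.9, 7.62 and 20.8 CPM in cross fish Mys7064, Mys7065, Mys7066 and Mys7067, against 5.31, 5.63, 6.35 and 3.46 CPM in DO fish Mys21, Mys22, Mys23 and Mys24. The groups did not overlap, but cross fish Mys7066 lay close to the DO fish. The means were 29.3 ± 20.5 CPM in cross and 5.19 ± 1.23 CPM in DO fish (SD, n = 4 each). The fitted log2 fold change was 2.50 with an SE of 0.43 (edgeR adjusted p = 0.125). The pH fish (15.4 to 25.9 CPM) and the control fish (16.9 to 27.5 CPM) were above all DO fish. Its log2 fold change against control was 0.40 (SE 0.40, edgeR adjusted p = 0.940) in cross and -2.10 (SE 0.42, edgeR adjusted p = 0.497) in DO fish.

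Of the features lower in cross, TRINITY_DN51385_c4_g5 had 1.48, 0.734, 1.495 and 1.05 CPM in cross fish Mys7064, Mys7065, Mys7066 and Mys7067, against 5.58, 2.75, 5.05 and 2.96 CPM in DO fish Mys21, Mys22, Mys23 and Mys24. All cross fish were below all DO fish. The means were 1.19 ± 0.368 CPM in cross and 4.08 ± 1.44 CPM in DO fish (SD, n = 4 each). This gave a log2 fold change of -1.77 with an SE of 0.32 (edgeR adjusted p = 0.133). The pH fish (1.19 to 2.02 CPM) overlapped the cross fish and the control fish (2.08 to 3.04 CPM) were above all of them. Against control the log2 fold change was -1.06 (SE 0.32, edgeR adjusted p = 0.923) in cross and 0.71 (SE 0.31, edgeR adjusted p = 0.749) in DO fish.

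TRINITY_DN44229_c1_g4 showed the tightest cross values of the 4 named features relative to their mean. It had 8.28, 8.85, 11.8 and 10.5 CPM in cross fish Mys7064, Mys7065, Mys7066 and Mys7067, against 26.9, 28.1, 19.9 and 18.6 CPM in DO fish Mys21, Mys22, Mys23 and Mys24. The means were 9.86 ± 1.61 CPM in cross and 23.4 ± 4.81 CPM in DO fish (SD, n = 4 each). Its log2 fold change was -1.25 with an SE of 0.25 (edgeR adjusted p = 0.135). The pH fish (14.1 to 17.9 CPM) lay above all cross fish, with the highest of them close to the lowest DO fish, while the control fish (9.97 to 23.3 CPM) overlapped both. All 4 named features had an adjusted p under 0.05 in DESeq2, in edgeR without cross fish Mys7066 and in edgeR with no filter on low counts, and TRINITY_DN49540_c0_g1 also in limma voom and in edgeR without DO fish Mys22.

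**Figure D2:**
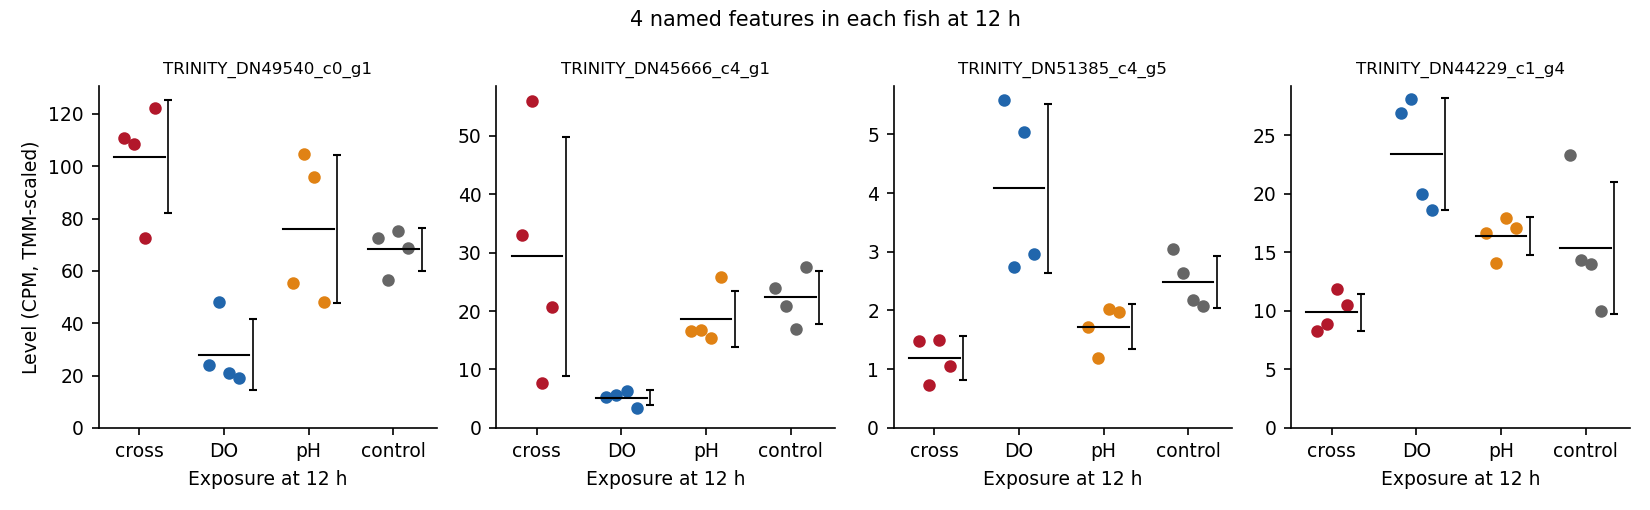
Level in CPM (vertical axes, scaled by TMM, starting at 0) of the 4 named features in each fish at 12 h by exposure; points are fish, horizontal lines are group means and the bars beside them 1 SD. Cross and DO fish do not overlap in any panel, because the features were chosen for this. The pH and control means lie between the cross and DO means in all 4. As the choice rests on the difference between cross and DO, this is a description only.

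The control mean stood between both exposures for most features that separated cross from DO. For the 1629 features higher in cross, the median log2 fold change against control was 0.36 in cross and -0.62 in DO fish, and 231 of them had an unadjusted p under 0.05 for cross against control (4.98% of all features did) and 578 for DO against control (6.62% of all features). For the 1145 features lower in cross the medians were -0.61 in cross and 0.50 in DO fish, with 223 and 151 features at an unadjusted p under 0.05. DO fish were farther from control than cross fish in 65.1% of the higher features, in 43.3% of the lower ones and in 51.99% of all features. The control mean lay between the exposures in 82.7% of the higher and 87.8% of the lower features, against 40.6% of all. These features were selected by the difference between cross and DO, which enters both comparisons, so the values are given as a description. Against control, edgeR called 0 features (0%) in each exposure, as it did for cross against DO.

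Across all features, the correlation between the fold changes of cross against DO and those of high pCO2 without low oxygen was close to 0. The difference of pH fish from control fish shares no fish with that of cross from DO. Across the 24701 features the correlation of both sets of log2 fold changes was 0.00091 (Pearson) and 0.0035 (Spearman), with the same sign in 50.4%. These are values across features, which are not independent replicates. For pH against control the median absolute log2 fold change was only 0.22, and 2.13% of features had an unadjusted p under 0.05. Error in such small fold changes draws a correlation towards 0. The value near 0 thus does not show that the effect of high pCO2 differs when oxygen is low. In the 1629 features higher in cross the median pH fold change was -0.0080 (log2), in the 1145 lower it was -0.040, and over all features -0.0062. The large assembly groups had negative fold changes here too. In the largest group the median pH fold change was -0.41 (log2), with 61 of 70 negative and 1 lower at an unadjusted p under 0.05. In all 9 groups with at least 20 tested features the median was negative (-0.41 to -0.029). Of the 1629 and 1145 features 33 and 12 had an unadjusted p under 0.05 for pH against control, beside 526 of all features (2.13%). Cross against pH fish, the effect of low oxygen at high pCO2, gave 0 features at an adjusted p under 0.05 and 1090 at an unadjusted p under 0.05 (4.41%). The difference between the 2 effects was itself tested in edgeR: it passed in 0 features, the adjusted p was at least 0.759, and 1591 features had an unadjusted p under 0.05 (6.44%).

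Distances between fish were on average shorter among DO than among cross fish. The mean Euclidean distance of log2 CPM between fish was 170 among cross fish (149 to 187), 140 among DO fish (123 to 150) and 164 between a cross and a DO fish (132 to 200). Distances between groups exceeded those within groups by 8.70 on average (one-sided exact permutation p = 0.0571 over 35 divisions, smallest possible 0.0286). Without cross fish Mys7066 the excess was 23.4 (exact permutation p = 0.0286), and without DO fish Mys21, Mys23 or Mys24 it was -0.445, 1.18 and 3.78. The difference of 29.8 in distance within groups was tested after it was seen (two-sided exact permutation p = 0.171). The median SD of log2 CPM was 0.56 in cross and 0.43 in DO fish, and 64.1% of features had the larger SD in cross.

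By mean distance, only Mys7064 of the cross fish was nearer to its own group than to the DO fish, and Mys7066 was nearer to the DO fish by the widest margin. A mean distance to a group grows with the spread of that group, which was larger among cross fish (170 against 140). Small margins thus do not show that a cross fish was more like DO fish. The mean distance of Mys7066 was 170 to the other cross fish and 137 to the DO fish. For Mys7064 the values were 172 and 186, for Mys7065 161.5 and 160.5, and for Mys7067 176 and 171. DO fish Mys22 was at 147 from the cross fish and 145 from the other DO fish, whereas Mys21, Mys23 and Mys24 were 165 to 174 from the cross fish and 137 to 141 from the other DO fish.

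**Figure D3:**
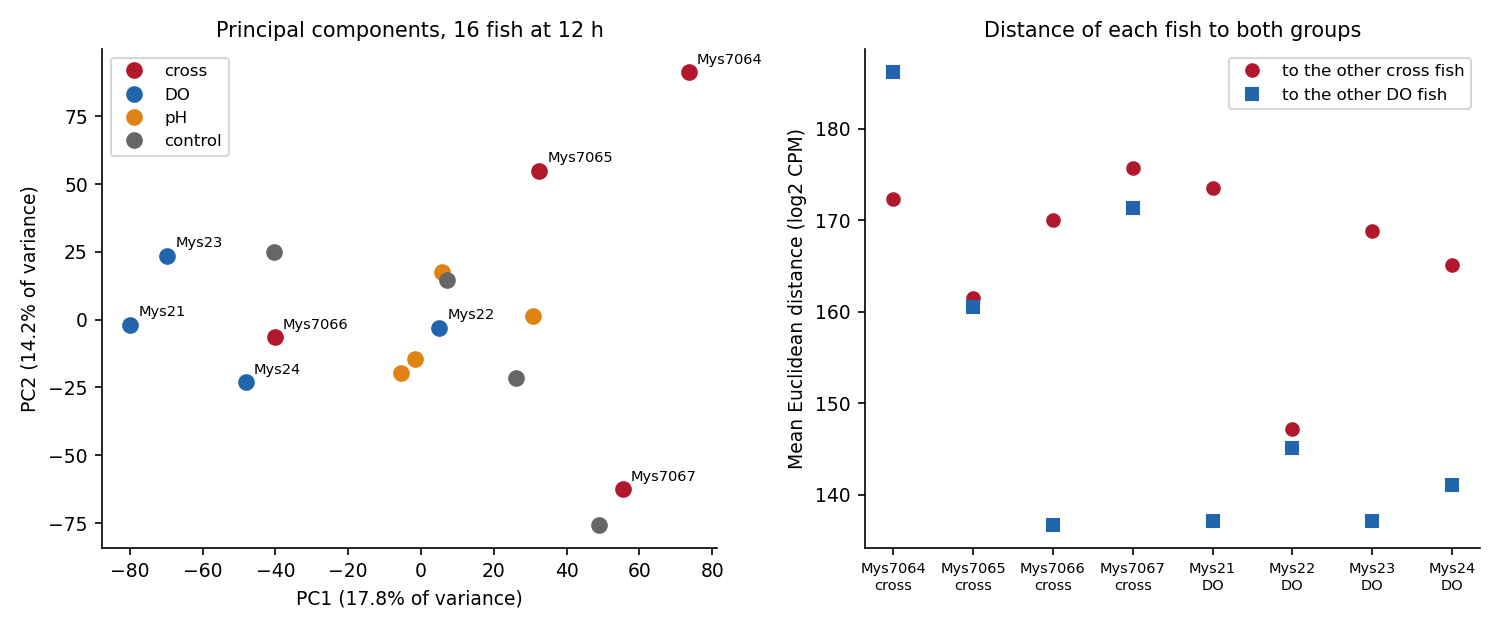
Left, the first 2 principal components of log2 CPM over the 16 fish of 12 h, with cross and DO fish named; right, mean Euclidean distance of each cross and DO fish to the other fish of both groups (axis not starting at 0). DO fish Mys21, Mys23 and Mys24 lie on the left, as do cross fish Mys7066 and a control fish (Mys13, not named in the plot). The other cross fish are spread along both components.

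In edgeR, the number of features that passed changed with the fish left out, and most of all without cross fish Mys7066. Without cross fish Mys7066 edgeR called 329 features (175 higher and 154 lower in cross, smallest adjusted p 0.0018), without DO fish Mys22 it called 1, and without any other of the 8 fish 0. The count at an unadjusted p under 0.05 was 4335 without Mys7066 and 3625 without Mys22, and it was 1865 without cross fish Mys7064 and 1865 without DO fish Mys21. Of the 329 features, 143 were also called by DESeq2 with all fish, which is 43.5% of the 329 and 61.9% of the 231 that DESeq2 called.

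The fish left out was then placed on the features that the other 7 fish gave. Position 0 is the mean log2 CPM of the remaining DO fish and position 1 that of the remaining cross fish, over features with an unadjusted p under 0.05 without that fish. The median position of the left-out cross fish was 1.03 for Mys7064, 0.67 for Mys7065, 0.16 for Mys7066 and 0.43 for Mys7067. For the left-out DO fish it was 0.011 for Mys21, 0.67 for Mys22, 0.15 for Mys23 and 0.27 for Mys24. By the median, cross fish Mys7066 and Mys7067 were thus nearer to the DO mean, and DO fish Mys22 was nearer to the cross mean. The features were chosen by the difference between the same 7 fish that set both means. Such a choice draws a left-out fish towards the middle, so a position such as 0.43 does not place a fish with the other group. The features and both means differ with the fish left out, so positions of different fish are not on the same scale. Mys7066 was nearer to the cross mean in 24.2% of 4178 features and Mys22 nearer to the DO mean in 35.8% of 3490. Of the 329 features called without Mys7066, 318 could be placed, and in 236 of them Mys7066 was on the cross side of the DO mean, but in only 48 was it nearer to the cross mean.

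**Figure D4:**
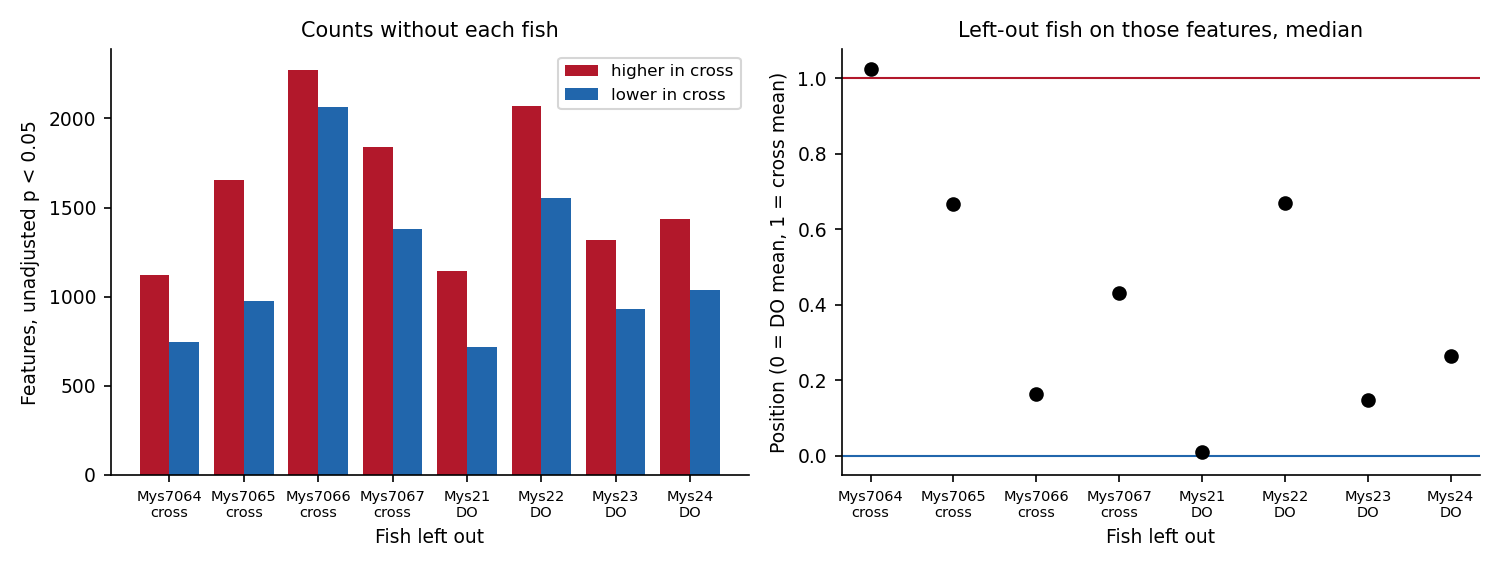
Left, number of features at an unadjusted p under 0.05 for cross against DO (edgeR) with each of the 8 fish left out, higher in cross in red and lower in blue; right, median position of the left-out fish between the DO mean (0) and the cross mean (1) on those features. Counts are highest without Mys7066, whose position of 0.16 is the lowest of the cross fish.

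At later times, in other fish, the features that separated cross from DO at 12 h did not keep their side as a group. Of the 1629 features higher in cross at 12 h, 1585 were tested at 24 h, where 35.7% had a positive fold change (52.1% of all the 12 h features tested there) and the median log2 fold change was -0.13 beside 0.02 for all. Of the 1145 lower features, 1095 were tested at 24 h, where 68.5% had a positive fold change and the median was 0.21. At an unadjusted p under 0.05, which 753 of 26357 features reached at 24 h (2.86%; 2.13% higher and 0.725% lower in cross), 7 of the higher features kept their side and 20 had the opposite one, and of the lower features 2 kept it and 57 did not. The DO group at 24 h held only 3 fish, and Mys35 differed from the others in composition. Its 100 most abundant features took 42.1% of its counts, against 61.2% in Mys34 and 60.05% in Mys36. It held a count for 76543 features, against 50134 and 47899. The part of Mys35 in the reversed signs at 24 h was not tested. At 2 weeks the medians were 0.0032 for the higher and 0.069 for the lower features, with 50.3% and 56.6% positive beside 49.4% of all. There edgeR called 1 of 26595 features (0.00376%), lower in cross, and 1881 had an unadjusted p under 0.05 (7.07%; 3.23% higher and 3.84% lower in cross), among them 36 of the higher features on the same side and 50 on the other, and 36 and 78 of the lower ones.

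The abundant features and the largest assembly group were followed to the later times. The 100 most abundant features of 12 h had a median log2 fold change of cross against DO of -0.50 at 12 h, -0.054 at 24 h and -0.084 at 2 weeks, with 25, 0 and 5 lower and 0, 1 and 3 higher at an unadjusted p under 0.05. Of all features tested at these times, 4.64%, 0.725% and 3.84% were lower and 6.59%, 2.13% and 3.23% higher. These shares are the background for the 100 and for the largest group. Negative fold changes numbered 93, 72 and 73 of the 100, so most stayed below 0 with smaller medians. The largest assembly group had medians of -1.12, 0.63 and 0.22, with 38 of 70 features lower at 12 h, 0 of 62 lower and 2 higher at 24 h, and 0 of 81 lower and 1 higher at 2 weeks. Its share at 24 h was 34185 to 60075 CPM in cross fish and 14132, 44195 and 49764 CPM in the 3 DO fish, of which the lowest, Mys35, stood apart.

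**Figure D5:**
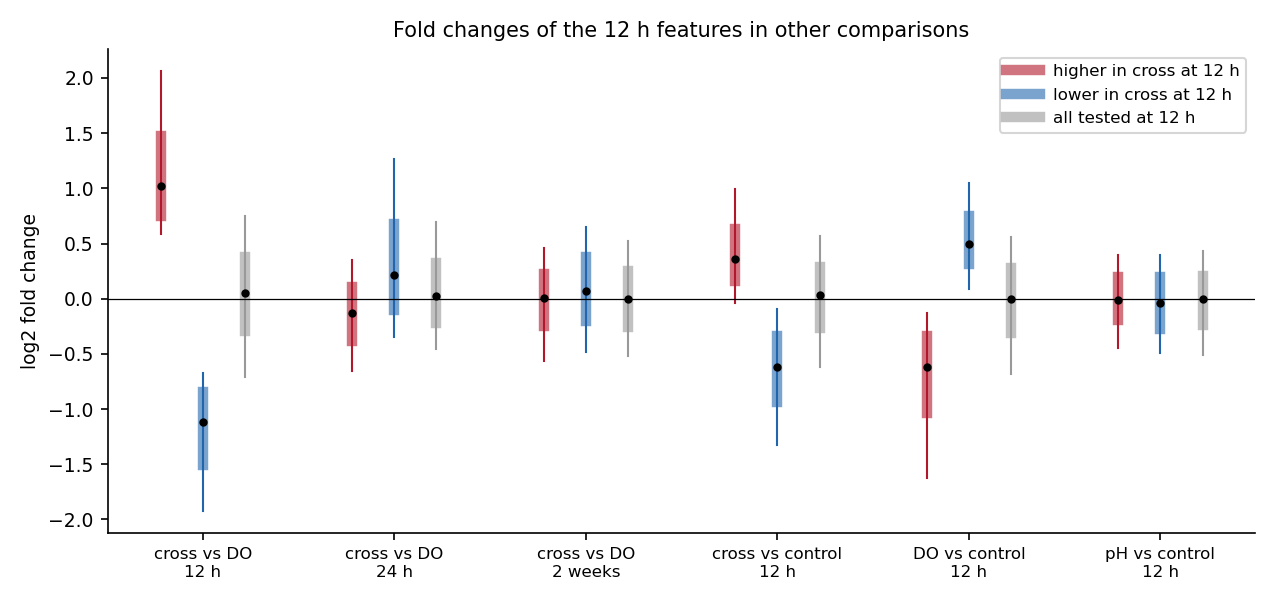
Log2 fold changes (vertical axis) of the features higher (red) or lower (blue) in cross at 12 h at an unadjusted p under 0.05, and of all features tested at 12 h (grey), in 6 comparisons; dots are medians, thick bars hold the middle quartiles and thin lines reach the 10th and 90th percentiles. The red and blue medians are 1.02 and -1.12 at 12 h, where they were chosen, and -0.13 and 0.21 for cross against DO at 24 h. The DO group at 24 h held 3 fish.

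TRINITY_DN49540_c0_g1 was at 13.2, 12.3, 10.1 and 32.1 CPM in cross fish at 24 h, against 16.4, 42.0 and 41.5 CPM in DO fish at 24 h, so that 3 of the 4 cross fish lay below all DO fish. Its log2 fold change was 1.89 at 12 h, -0.98 at 24 h (SE 0.71) and 0.21 at 2 weeks (SE 0.29). At 2 weeks it stood at 8.73 to 14.6 CPM in cross and 5.86 to 13.4 CPM in DO fish. For TRINITY_DN51385_c4_g5 the log2 fold change was -1.77 at 12 h, 0.96 at 24 h (SE 0.54) and 0.15 at 2 weeks (SE 0.40). TRINITY_DN45666_c4_g1 gave 0.34 and 0.15 and TRINITY_DN44229_c1_g4 -0.039 and -0.27 at 24 h and 2 weeks. For all 4 features the edgeR adjusted p at the later times was at least 0.811.

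Whether the difference between cross and DO depended on time was tested over all 44 fish and 34070 features. The test passed in 0 features (0%) in edgeR, the only tool run for it, where no adjusted p was below 0.473. An unadjusted p under 0.05 was found in 2424 features (7.11%). The named features had unadjusted p of 0.0013 (TRINITY_DN49540_c0_g1), 0.015 (TRINITY_DN45666_c4_g1), 0.00029 (TRINITY_DN51385_c4_g5) and 0.018 (TRINITY_DN44229_c1_g4), with adjusted p from 0.473 to 0.621. They had been chosen by their 12 h difference, and the test does not show that the difference is particular to 12 h. In simulated data, 100 features were changed 2-fold and 100 were changed 4-fold in cross fish of 12 h, with the same spread in all groups. Between cross and DO at 12 h the edgeR test recovered 6% and 54% of them (24701 features). The time test recovered 0% and 9% (34070 features), so that most simulated differences of 2-fold were missed. Recovery depends on how many features change as well as on the number of fish, so these shares need not hold for the data.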

How the data were processed

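RNA of white muscle was sequenced as stranded mRNA libraries, prepared in 2 sets in randomized order per the labels' protocols. Neither set nor aquarium entered a model, since the sources used here give neither for a fish. The submitters' processing notes name RSEM 1.3.0 and Bowtie, edgeR, and FastQC 0.11.5 besides Trimmomatic 0.36, without saying what each did or how the assembly was made. The deposited tables hold expected counts, that is reads per assembled feature as estimated by the authors, not normalized. At 12 h, 9.82% of values over all 239549 features differ from a whole number by more than 1e-06. Over the 24701 features tested at 12 h the share was 55.9%. The tables list 239549 features with Trinity identifiers and pair none with a gene name. Reads shared between near-identical features may have been split.

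Expected counts were rounded. The main test was edgeR 4.0.16 in R 4.3.3, by robust quasi-likelihood F tests after TMM scaling and filterByExpr (minimum count 10, total 15), two-sided, Benjamini-Hochberg adjusted over all features tested, with a threshold of 0.05. The 16 fish of 12 h in 4 groups shared 1 fit, the later times a fit each, and time dependence used all 44 fish. The SE is the absolute log2 fold change divided by the square root of F. CPM values are scaled by TMM unless given as a share of the library. Log2 CPM used a prior count of 2. A level of 3 counts was 0.0874 to 0.272 CPM over the 8 libraries, counting error only. The biological coefficient of variation was 40.4%. The chi-square statistic per feature between fish of the same group was 18.8 to 160 over the 12 pairs within cross and within DO. No library of these 8 was thus a copy of another in its own group, and pairs across groups were not checked.

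Single values were compared by exact permutation over fish. Named features were, in each direction, the 2 with the smallest p among features with an average log2 CPM of at least 1 whose cross and DO fish did not overlap, since fewer than 2 passed the threshold. The comparison, features and lists were chosen with earlier results of these data known. The alternatives changed the tool (DESeq2 1.42.0; voom of limma 3.58.1 with sample weights; edgeR plus 1 surrogate variable from sva 3.50.0), the scaling (RLE), the filter (none, or minimum count 30), rounding, the prior count (0.5) or the fish in the fit (only cross and DO, or 1 fish left out). edgeR was tested on data simulated from the means and depths of these libraries, with 1 false call at 12 h and 2 in the time test.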

Additional observations from a re-analysis of the deposited data

Results flagged for a closer look

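Of 44 groups of 4 fish examined, 3 held a fish far from the others. Chance gives about 1 in 20 groups if the values are independent and normally distributed. Whether this holds for CPM of features chosen as these were was not tested. TRINITY_DN45666_c4_g1 was at 13.8 CPM in cross fish Mys7078 at 2 weeks, against 1.70 to 2.45 CPM in the other cross fish. The same feature was at 25.9 CPM in pH fish Mys20 at 12 h, against 15.4 to 16.7 CPM in the other pH fish. TRINITY_DN49540_c0_g1 was at 32.1 CPM in cross fish Mys7071 at 24 h, against 10.1 to 13.2 CPM in the other cross fish.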

How the results depend on the processing

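No paired analysis was possible because no fish number is shared between groups. The edgeR count of 0 for cross against DO at 12 h was also 0 with RLE size factors, the stricter filter, unrounded counts, 1 surrogate variable and only cross and DO in the fit. It was 231 in DESeq2, 1 in limma voom and 566 with no low-count filter, where 124974 features were tested. With each fish left out it was 0 to 329. With no filter the log2 fold changes of the named features hardly moved (1.91, 2.57, -1.72 and -1.22, in the order of their paragraphs). Their edgeR adjusted p fell to 6.8e-08, 6.3e-12, 0.0080 and 0.016. The cause of these differences was not tested. The count at an unadjusted p under 0.05 was 7750 with no filter and 1859 to 2973 under the other settings with all fish. It was 1865 to 4335 with each fish left out. The 1859, of 21864 features, came with only cross and DO in the edgeR fit. There the smallest adjusted p was 0.256, and it was 0.303 for each of the 4 named features. Features without overlap numbered 704 to 1021 over the settings with all fish and 1453 to 3044 with a fish left out, which leaves fewer fish to overlap. The excess of distances between groups lay between 7.72 and 9.39 over the settings with all fish and between -0.445 (without DO fish Mys21, exact permutation p = 0.514) and 23.4 (without cross fish Mys7066, exact permutation p = 0.0286) with a fish left out. The correlation with the pH effect was -0.0293 under the stricter filter and -0.0217 to 0.0337 with a fish left out. The test of time dependence gave 0 features in all 25 alternatives. The 4 named features kept their direction in all 16 alternatives. They had been chosen because their cross and DO fish did not overlap in these same data. A kept direction with a fish left out thus follows from the choice and is no separate evidence. Their log2 fold changes were 1.74 to 2.28 (TRINITY_DN49540_c0_g1), 1.98 to 2.82 (TRINITY_DN45666_c4_g1), -1.93 to -1.57 (TRINITY_DN51385_c4_g5) and -1.35 to -1.15 (TRINITY_DN44229_c1_g4). They were past the threshold in 5, 3, 3 and 3 of the 16. Chosen after seeing the data, the 1021 features without overlap in place of those at an unadjusted p under 0.05 gave later medians of -0.092 at 24 h and 0.052 at 2 weeks for the higher and 0.082 and -0.036 for the lower features, and the difference in distance within groups was 29.7 to 30.02 under 3 other settings.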

Other observations

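In many of the features with the largest fold changes between cross and DO, 1 fish held most of its group's CPM. A log2 fold change of at least 3 was found in 57 features higher in cross. Of these, 25 did not overlap between the groups, beside 2.45% of all features tested. Cross fish Mys7064 had the highest level in 33 of the 57, Mys7065 in 14, Mys7067 in 9 and Mys7066 in 1. Most of the CPM summed over the cross fish was in Mys7064 alone for 23 features. It was in Mys7065 alone for 11, in Mys7067 for 5 and in Mys7066 for 1. Features lower in cross by at least 3 numbered 20, of which 3 did not overlap, beside 1.69% of all features tested. The highest DO fish was Mys21 in 8, Mys22 in 7, Mys23 in 3 and Mys24 in 2. It held most of the CPM summed over the DO fish in 4, 4, 2 and 2 of them.

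Over all 239549 features, 189 had a count in every cross fish and none in any DO fish, against 23 with a count in every DO fish and none in any cross fish. Only 2 and 0 of these passed the low-count filter. Their median sum was 9 counts over the cross fish and 6 over the DO fish, from 94699795 and 69754393 counts in all. The feature with the highest sum had 173 counts over the cross fish, at least 42.5-fold higher than the 3 counts over the DO group that a count of 0 allows (0.0430 CPM, counting error only).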
